A study of Mus musculus with 2 samples.

Results

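The genes described here are 8 members of the secondary (specific) and tertiary (gelatinase) granules of neutrophils, Camp, Ngp, Ltf, Cd177, Pglyrp1, Itgb2l, Mmp8 and Chil3, out of 31053 genes in the deposited matrix. They were chosen by symbol, and each symbol matched a single row. Their unique molecular identifiers (UMIs, each standing for a captured RNA molecule) were counted by library and by cell class, with neutrophil-like cells split at 10 UMIs of Camp, Ngp and Ltf together, and in 13 cluster averages that the authors deposited. The study asked how Smad3, a transcription factor downstream of TGF-β1, shapes tumor-associated neutrophils (TANs). CD11b+Ly6G+ cells were sorted from LLC tumors, grown from a mouse lung carcinoma line, in Smad3-WT (Smad3+/+) and Smad3-KO (Smad3-/-) mice of the C57BL/6 strain (C57BL/6 J in the methods), aged 8 to 12 weeks. Cells of 8 tumors were mixed per genotype and gave 1 library each with a 5′ kit, so that mice and tumors cannot be separated, no test of genotype is possible, and every interval below (95%) covers counting error only.

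In the knockout allele, exon 8 is deleted and exon 7 disrupted, while tags of a 5′ kit lie near the start of the transcript. Hence the 303 Smad3 UMIs of the Smad3-WT library and the 323 of the Smad3-KO library check nothing about the labels. After the quality filter, Smad3 was higher per UMI in the Smad3-KO library, 5.30-fold over all cells (interval 4.40 to 6.40) and 9.73-fold in neutrophil-like cells (interval 6.59 to 14.9). After the quality filter of the methods, 3520 of 4116 Smad3-WT and 2433 of 2514 Smad3-KO barcodes remained, with medians of 1318.5 and 1199 UMIs. Despite the sort, neutrophil-like cells, named from S100a8, S100a9, Csf3r and other markers, were 1816 Smad3-WT cells (51.6%) and 1063 Smad3-KO cells (43.7%). Most of these lay in different clusters, cluster 1 with 1237 Smad3-WT cells and cluster 2 with 770 Smad3-KO cells. The libraries shared 73 barcodes, none of them among the granule-high cells described below. The libraries also differed in genes that report sex, Xist and 4 Y-linked genes. Xist had 8 UMIs in all Smad3-WT and 1953 in all Smad3-KO cells, and the Y-linked genes had 1553 and 71 UMIs, so sex and genotype cannot be told apart in any comparison of the libraries. The methods say that mice of both sexes were used.

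Neutrophils load their granules in an order set by the stage at which each gene is transcribed in the bone marrow. Azurophil (primary) granule proteins such as myeloperoxidase are made by promyelocytes, specific granule proteins by myelocytes and metamyelocytes, and gelatinase granule proteins by band cells. These transcripts then decline, so that circulating neutrophils carry the proteins with little of the RNA. C/EBPε, encoded by Cebpe, is a transcription factor required for specific granule genes.

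Among the members, Camp encodes the antimicrobial cathelicidin, Ngp a cathelin-related granule protein, Ltf the iron-binding lactoferrin and Pglyrp1 a protein that binds bacterial peptidoglycan. Cd177 is a surface protein also held in specific granules, Itgb2l is an integrin beta chain related to Itgb2, Mmp8 is neutrophil collagenase, and Chil3 (Ym1) is a chitinase-like lectin that monocytes and macrophages also make. In the RefSeq annotation of GRCm38.p6 (mm10), Camp lies at chr9:109847377-109849456 on the minus strand, Ngp at chr9:110419808-110423012 and Ltf at chr9:111019292-111042766, both on the plus strand. These 3 genes thus fall within 1.20 Mb, with 29 other protein-coding genes between Camp and Ltf. Mmp8 (chr9:7558429-7568486, plus strand) is on the same chromosome at a distance, Cd177 (chr7:24743983-24760334, minus) and Pglyrp1 (chr7:18884690-18890438, plus) are on chromosome 7, Itgb2l (chr16:96422288-96443664, minus) is on chromosome 16, and Chil3 (chr3:106147554-106167564, minus) is on chromosome 3.

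Since Cebpe was among the genes counted beside the members, 250 bases at the start of each member gene were searched for the C/EBP motif TTGCNNAA on both strands. These windows lay before the gene spans given above, except that those of Cd177 (chr7:24760312-24760561) and Itgb2l (chr16:96443615-96443864) overlapped them. The motif was found in 3 of 8 members, Ngp with 2 matches, Ltf with 1 and Mmp8 with 1, and in 9.56% of 32851 mouse promoters of that length. The 3 genes of the split and Mmp8 are printed 5′ to 3′ on the strand of the gene, from RefSeq on GRCm38.p6, with matches to the motif in capitals. They cover chr9:109849457-109849706 for Camp, chr9:110419558-110419807 for Ngp, chr9:111019042-111019291 for Ltf and chr9:7558179-7558428 for Mmp8.
Camp: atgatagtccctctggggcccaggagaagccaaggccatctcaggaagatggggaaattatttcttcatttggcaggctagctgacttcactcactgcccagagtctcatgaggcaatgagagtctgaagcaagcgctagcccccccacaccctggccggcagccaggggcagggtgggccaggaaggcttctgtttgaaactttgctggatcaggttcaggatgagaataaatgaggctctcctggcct
Ngp: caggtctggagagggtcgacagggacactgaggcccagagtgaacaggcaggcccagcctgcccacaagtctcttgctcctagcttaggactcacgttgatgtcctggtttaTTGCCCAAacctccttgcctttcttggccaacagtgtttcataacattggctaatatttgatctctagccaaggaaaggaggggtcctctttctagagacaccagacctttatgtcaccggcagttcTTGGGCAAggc
Ltf: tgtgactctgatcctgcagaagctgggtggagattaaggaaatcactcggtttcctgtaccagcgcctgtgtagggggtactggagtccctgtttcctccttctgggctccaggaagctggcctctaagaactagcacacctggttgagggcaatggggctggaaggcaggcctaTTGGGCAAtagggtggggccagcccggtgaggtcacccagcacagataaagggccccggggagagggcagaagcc
Mmp8: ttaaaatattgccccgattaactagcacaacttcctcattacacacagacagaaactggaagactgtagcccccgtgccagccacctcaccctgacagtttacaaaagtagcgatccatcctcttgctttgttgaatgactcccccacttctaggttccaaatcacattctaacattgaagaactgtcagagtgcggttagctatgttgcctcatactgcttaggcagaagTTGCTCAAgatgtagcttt
The Camp window held no match. The PU.1 motif GAGGAA was found in 5 members, against 23.3% of the promoters, and the RUNX motif TGTGGT in 0 members, against 14.05%. A match describes letters and not a bound site.

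Neutrophil-like cells that were rich in Camp, Ngp and Ltf were found in the Smad3-KO library. Of 1063 Smad3-KO cells, 53 had at least 10 UMIs of these 3 genes, or 4.99% (interval 3.76 to 6.47), and of 1816 Smad3-WT cells 0 did, for which 3 cells set a limit of 0.165% (exact upper limit 0.203%). The split fell in a gap. The highest Smad3-KO cell under it had 5 UMIs and the lowest above it had 13, while the highest of all had 668. In Smad3-WT, 14 cells had 1 UMI of the 3 genes and the other 1802 had none, whereas in Smad3-KO 911 cells had 0, 83 had 1 and 15 had 2 to 4. The 53 cells are called granule-high, and since Camp, Ngp and Ltf chose them, levels of these 3 genes in them are a description.

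**Figure D1:**
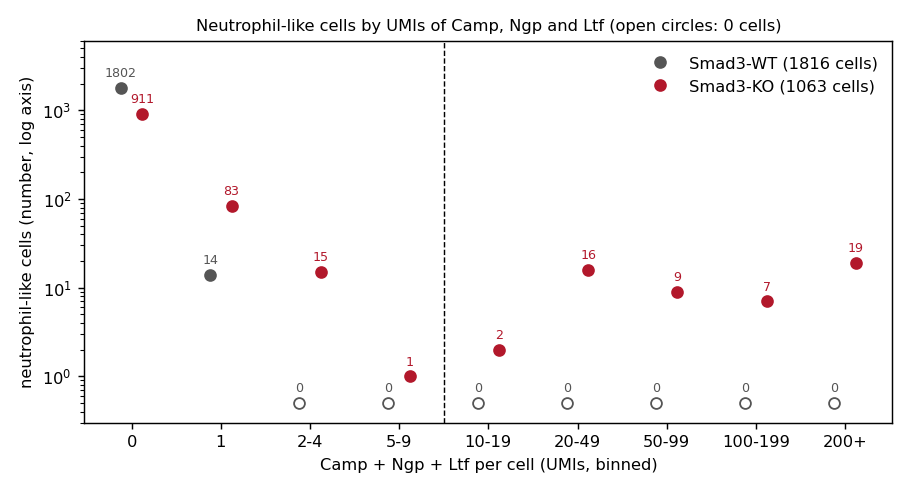
Number of neutrophil-like cells (log axis) by UMIs of Camp, Ngp and Ltf together in the cell (bins), for the Smad3-WT library (grey) and the Smad3-KO library (red), with the split at 10 UMIs as a dashed line and open circles for bins with 0 cells. All 53 cells to the right of the line are Smad3-KO cells, and 19 of them hold 200 UMIs or more.

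Of the granule-high cells, 48 lay in cluster 13, which held 129 Smad3-KO and 10 Smad3-WT cells, and 5 in cluster 2. Cluster 13 was led by Camp, Ngp, Ltf and Ly6g although the granule genes had been left out of the genes used for clustering. A further 5 Smad3-KO cells over 10 UMIs lay outside the neutrophils, with 14 UMIs in a B or plasma-like cell, 18 and 69 in cells of an unnamed cluster, and 27 and 119 in monocyte-like cells. No doublet caller was run, so a pair of cells under 1 barcode cannot be told from a cell of mixed markers. Granule-high cells were deeper than the rest, with a median of 2267 UMIs (range 750 to 6658) and 683 genes, against 985 UMIs and 388.5 genes in the other Smad3-KO neutrophils and 742 UMIs and 371 genes in the Smad3-WT neutrophils. Levels below are therefore shares of the UMIs of a group, and shares of cells are also given with each cell thinned to 500 UMIs.

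In granule-high cells, the members took a large share of all RNA. Camp, Ngp and Ltf together had a median of 99 UMIs per cell, or 5.06% of the UMIs of the cell, with 0.781% in the lowest and 19.4% in the highest. Each cell held UMIs of 4 to 8 of the 8 members, 46 of 53 held at least 6, and 8 cells held all of them. No other Smad3-KO neutrophil held more than 5 members and no Smad3-WT neutrophil more than 3, and 756 of 1010 and 1193 of 1816 cells held none. Camp, Ngp and Ltf, which chose the granule-high cells, enter these counts. The counts are also at full depth, which was higher in granule-high cells, so they are a description.

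Among the antimicrobial proteins, Camp was found in 96.2% of granule-high cells, with 0 UMIs in the lowest, 41 in the median and 296 in the highest cell. Its level was 26638 CPM (UMIs per 1000000 UMIs of the group) there, 22.0 CPM in other Smad3-KO neutrophils and 0 UMIs in Smad3-WT neutrophils. Ngp was found in 98.1% of the cells, with a median of 45 and a maximum of 360 UMIs, and its level was 33694, 35.3 and 1.21 CPM in the same 3 groups. Ltf was found in 90.6%, with a median of 14 and a maximum of 77 UMIs, and had 7092, 51.1 and 7.28 CPM. Over all other neutrophils of either library, none of these 3 genes exceeded 51.1 CPM. The split itself holds their sum under 10 UMIs in each of those cells, so these low levels are a description. The 12 Ltf and 2 Ngp UMIs of Smad3-WT neutrophils lay in 14 different cells.

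Pglyrp1, which did not enter the split, was found in all 53 granule-high cells, with 1 UMI in the lowest, 9 in the median and 28 in the highest cell. It had 501 UMIs or 3592 CPM in granule-high cells, 243 UMIs or 214 CPM in other Smad3-KO neutrophils and 592 UMIs or 359 CPM in Smad3-WT neutrophils. The level in granule-high cells was 16.8-fold that of the other Smad3-KO neutrophils (interval 14.4 to 19.6). Outside the granule-high cells, it was found in 22.5% of Smad3-WT and 13.6% of other Smad3-KO neutrophils.

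The surface proteins divided differently between the libraries. Cd177 had 171 UMIs or 1226 CPM in granule-high cells, 16 UMIs or 14.1 CPM in other Smad3-KO neutrophils and 173 UMIs or 105 CPM in Smad3-WT neutrophils. It was 86.9-fold higher in granule-high than in other Smad3-KO cells (interval 52.0 to 155), and was found in 86.8%, 1.29% and 7.82% of cells. Cd177 was therefore spread over Smad3-WT neutrophils but held mostly by granule-high cells in Smad3-KO. Itgb2l had 39 UMIs in granule-high cells, 7 in other Smad3-KO neutrophils and 0 in all 3520 Smad3-WT cells. The ratio within Smad3-KO was 45.3 (interval 20.03 to 120), and 45.3% of granule-high cells held it.

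At full depth, the collagenase and the lectin were found in fewer granule-high cells than Pglyrp1 and Cd177, but in more than Itgb2l. Mmp8 had 167 UMIs or 1197 CPM in granule-high cells, in 71.7% of them, 85 UMIs or 75.0 CPM in other Smad3-KO neutrophils and 195 UMIs or 118 CPM in Smad3-WT neutrophils, and was 15.98-fold higher in granule-high than in other Smad3-KO cells (interval 12.2 to 21.0). Chil3 had 359 UMIs or 2574 CPM in granule-high cells, in 66.0% of them, 20 UMIs or 17.6 CPM in other Smad3-KO neutrophils and 25 UMIs or 15.2 CPM in Smad3-WT neutrophils, and its ratio within Smad3-KO was 146 (interval 93.1 to 242). Neither gene was a constant feature of the cells. Chil4, the near-identical neighbour of Chil3 that could share its reads, had 0 UMIs in Smad3-KO neutrophils.

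Summed, the 5 members outside the split were 27.1-fold higher in granule-high than in other Smad3-KO neutrophils (interval 24.1 to 30.5). All 8 members were at least 2-fold higher, beside 22.4% of 3814 genes with at least 20 UMIs in these cells, while 27.9% of the genes were at least 2-fold lower and the median gene had a log2 ratio of -0.10. Nothing is read from that count for Camp, Ngp and Ltf, which chose the cells, and Cd177 and Itgb2l reached 20 UMIs only with those of the granule-high cells. With each cell thinned to 500 UMIs, the shares of granule-high cells with a UMI were 92.5% for Camp, 98.1% for Ngp, 86.8% for Ltf, 73.6% for Pglyrp1, 45.3% for Cd177, 45.3% for Mmp8, 37.7% for Chil3 and 13.2% for Itgb2l. Members found in at least 50% of granule-high cells thus numbered 7 at full depth and 4 at equal depth. Both counts include Camp, Ngp and Ltf, whose shares were largely set by the split. Of the 5 members outside the split, only Pglyrp1 passed at equal depth.

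**Figure D2:**
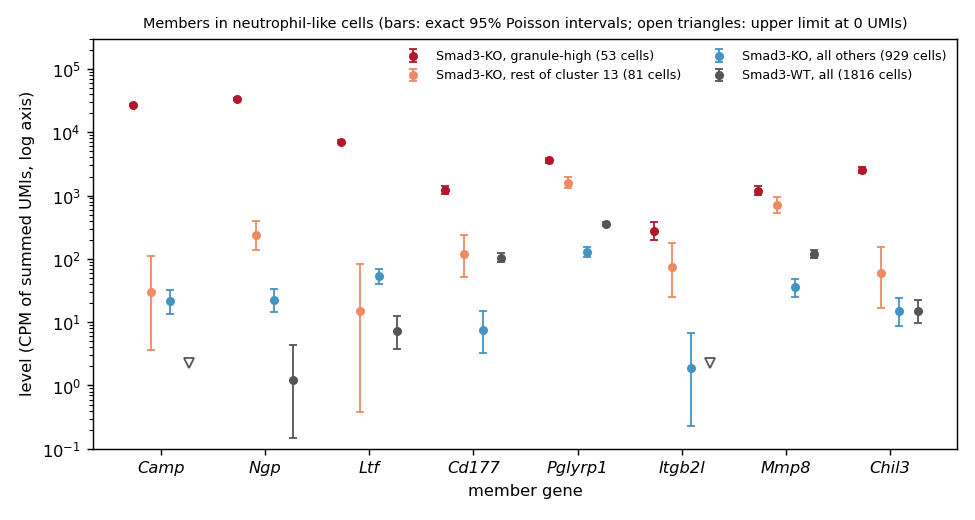
Level of each member in CPM of summed UMIs (log axis), with exact 95% Poisson intervals, in granule-high Smad3-KO cells (dark red), the other Smad3-KO cells of cluster 13 (orange), all other Smad3-KO neutrophil-like cells (blue) and Smad3-WT neutrophil-like cells (grey); open triangles mark the upper limit at 0 UMIs. Pglyrp1 and Mmp8 of the orange group lie close to the red points, whereas Camp, Ngp and Ltf lie far below them.

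Cluster 13 also held 81 Smad3-KO neutrophils under the split, and these carried a part of the set. Pglyrp1 had 106 UMIs or 1603 CPM in them, 44.6% of its granule-high level, and Mmp8 had 47 UMIs or 711 CPM, 59.4% of its granule-high level. Against the 929 remaining Smad3-KO neutrophils, Pglyrp1 was 12.5-fold higher (interval 9.60 to 16.2) and Mmp8 19.98-fold higher (interval 12.7 to 31.5). Camp, in contrast, had 2 UMIs and Ltf 1, or 0.114% and 0.213% of their granule-high levels, with ratios of 1.40 (interval 0.160 to 5.68) and 0.283 (interval 0.00705 to 1.64) against the remaining cells. Ngp lay between, with 16 UMIs or 242 CPM, 0.718% of its granule-high level but 10.8-fold that of the remaining cells (interval 5.34 to 21.1). The split itself holds Camp, Ngp and Ltf under 10 UMIs together in each of these cells, and sets no limit on Pglyrp1 and Mmp8. Cd177 (8 UMIs), Itgb2l (5 UMIs) and Chil3 (4 UMIs) were too few in these cells, with a median of 727 UMIs, for a firm value. Their 16.2-fold ratio for Cd177 had an interval of 5.28 to 49.4. As these cells were clustered on the same libraries, the contrast is a description.

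Within the 53 granule-high cells, the members did not vary as 1 block. Over these cells, with CPM of each cell, Spearman's correlation was 0.69 for Camp with Ngp, 0.74 for Camp with Ltf and 0.76 for Camp with Chil3, but -0.57 for Camp with Mmp8 and -0.67 for Mmp8 with Chil3. After thinning to 500 UMIs the values were 0.65, 0.56, 0.65, -0.49 and -0.37. The points share a library, and shallow cells hold few UMIs of Mmp8 and Chil3, so the values are given as a description.

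The cells were therefore grouped by which of Chil3 and Mmp8 they held, a grouping chosen after the values were seen. Chil3 without Mmp8 was seen in 14 cells (median 3416 UMIs), both in 21 cells (median 2586), Mmp8 without Chil3 in 17 cells (median 1475) and neither in 1 cell. Depth falls in the same order, and its part in the grouping was not tested. Camp had 44159 CPM in cells with Chil3 alone, 23608 CPM in cells with both and 4256 CPM in cells with Mmp8 alone. Ngp had 56137, 25762 and 13520 CPM in the same order, and Ltf 7803, 8619 and 2540 CPM. Camp and Ngp were thus lower at each step of this series, while Ltf was lower only in the cells with Mmp8 alone. Pglyrp1 had 3458, 3565 and 3899 CPM, Cd177 1329, 1236 and 966 CPM, and Itgb2l 274, 254 and 322 CPM. For each of these last 3 genes, the intervals of the groups overlapped.

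Other genes were also counted along this series. Mmp9, gelatinase B of the tertiary granule, had 232 CPM in cells with Chil3 alone, 1933 CPM in cells with both and 2504 CPM in cells with Mmp8 alone. Other granule genes took another course. Lyz2 had 9279, 7098 and 4507 CPM in the same order, Lcn2 15795, 14640 and 8620 CPM, and Cybb 1455, 1632 and 858 CPM. Mmp9 was thus highest in the cells with Mmp8 alone, where Lyz2, Lcn2 and Cybb were lowest. Olfm4 had 0, 22 and 17 UMIs, in 2 cells of each of the last groups. Cebpe had 443 CPM (interval 274 to 677), 127 CPM (interval 54.7 to 250) and 143 CPM (interval 39.0 to 366). The interval for Chil3 alone overlapped that for Mmp8 alone, but not that for both. Of the 21 Cebpe UMIs in cells with Chil3 alone, 7 lay in 1 cell. The list of 10 proliferation genes, among them Top2a, Ube2c and Pclaf, had 101 UMIs in 8 of the 14 cells with Chil3 alone, 16 UMIs in 4 of the 21 cells with both and 0 UMIs in the 17 cells with Mmp8 alone. After thinning, 6, 2 and 0 cells held such a UMI. The histone transcript Hist1h2ap had 226, 21 and 0 UMIs, of which 97 lay in 1 cell of the first group. The list of 8 mature neutrophil genes, such as Cxcr2 and Il1b, had 12084 CPM in cells with Chil3 alone and 18934 and 18921 CPM in the other groups. Of its 573 UMIs in cells with Chil3 alone, single cells held 217, 142, 66, 64 and 64, and no other cell more than 4. In the same order, those single cells also held 19, 2, 19, 9 and 15 proliferation UMIs. The other proliferation UMIs of this group, 21, 15 and 1, lay in cells with at most 3 UMIs of the mature list. Whether barcodes with both lists are doublets was not tested. After thinning, 8 of 14, 18 of 21 and 17 of 17 cells held a UMI of the mature list. Its UMIs were also uneven in the cells with both Chil3 and Mmp8. Of 1195 there, single cells held 214, 212, 208, 162, 119, 99, 67 and 54, and no other cell more than 10. Of 529 in cells with Mmp8 alone, the highest cell held 148.

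**Figure D3:**
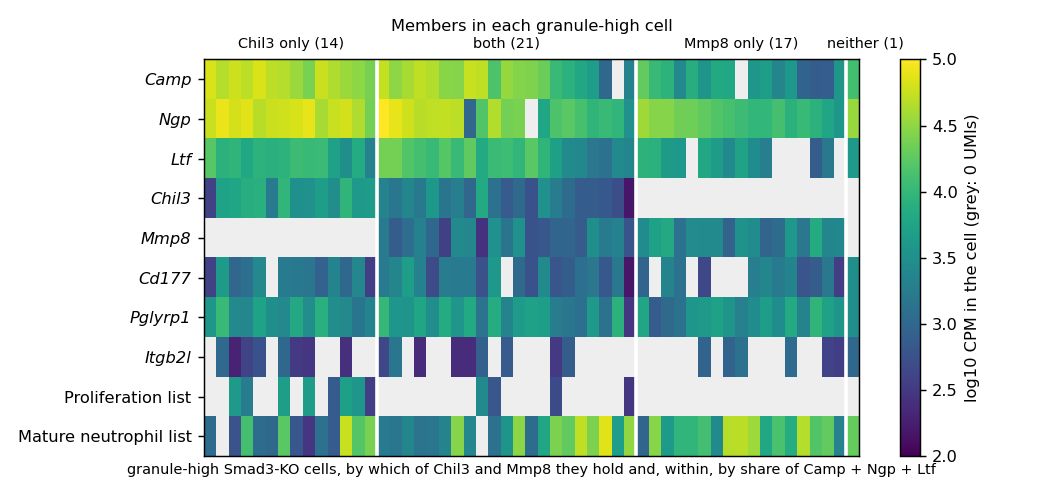
Level of each member and of the summed proliferation and mature neutrophil lists (log10 CPM in the cell, grey for 0 UMIs) in each of the 53 granule-high Smad3-KO cells, grouped by white lines into cells with Chil3 only, both, Mmp8 only and neither, and ordered within groups by the share of Camp, Ngp and Ltf. Camp and Ngp are bright on the left and darker on the right, proliferation genes are seen in 8 of the 14 cells on the left, and Pglyrp1 is seen in every cell.

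Genes of the earlier, azurophil granules were at or near 0 in granule-high cells. Of 6 azurophil granule genes, Mpo, Elane, Ctsg and Bpi had 0 UMIs in all Smad3-KO neutrophils, Prtn3 had 1 UMI in granule-high and 1 in other cells, and Prss57 had 0 and 2. None reached 20 UMIs. Of 13 further genes of specific and gelatinase granules or their membranes, 12 reached 20 UMIs. Of these, 8 were at least 2-fold higher in granule-high cells and 2 at least 2-fold lower, beside 22.4% and 27.9% of 3814 genes. Their median ratio was 2.83, beside 0.933 over all genes. Lyz2 (lysozyme) was 14.1-fold higher (interval 12.7 to 15.6), Cybb, the catalytic chain of the NADPH oxidase, 11.9-fold (interval 9.48 to 14.9) and Mmp9 5.44-fold (interval 4.54 to 6.51). Lcn2, a specific granule protein that inflammatory signals also induce, had 13789 CPM in granule-high and 8180 CPM in other Smad3-KO neutrophils, a ratio of 1.69. Adam8 and Slc11a1 were the 2 lower genes, with ratios of 0.369 (interval 0.243 to 0.539) and 0.262 (interval 0.119 to 0.505).

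Of 7 transcription factors of granulopoiesis, 5 reached 20 UMIs. Cebpe had 33 UMIs in granule-high and 13 in other Smad3-KO cells, which gave a ratio of 20.6 (interval 10.6 to 42.7). It reached 20 UMIs only with those of the granule-high cells, so its ratio is a description. Cebpd was 3.24-fold higher (interval 2.43 to 4.29). Cebpb, an emergency granulopoiesis factor, was lower at a ratio of 0.230 (interval 0.197 to 0.267), whereas the intervals of Spi1 (ratio 1.20) and Runx1 (ratio 0.769) included 1. All 8 mature neutrophil genes had ratios below 1, beside 2016 of 3814 genes, and 7 were at least 2-fold lower, beside 27.9% of genes. Cxcl2 was at 0.205 (interval 0.195 to 0.216) and Il1b at 0.219 (interval 0.195 to 0.245). For Cxcr2 the ratio was 0.788 with an interval that included 1 (0.554 to 1.09). Of the 10 proliferation genes, only Tuba1b (5.74-fold) and Tubb5 (6.42-fold) reached 20 UMIs. Tubb5 did so only with the UMIs of the granule-high cells, so its ratio is a description. Of the scarcer ones, Top2a had 15 UMIs in granule-high and 1 in other cells, Ube2c 14 and 0, and Pclaf 16 and 3.

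Outside the members, the 10 genes with the highest ratios among those with at least 200 UMIs were Hist1h2ap (167-fold), Anxa1 (24.4), Hmgn2 (21.0), Ifitm6 (15.8), Lyz2 (14.1), Ly6g (13.8), Cybb (11.9), Arhgdib (9.10), Ly6c2 (9.07) and H2afz (8.76). Hist1h2ap, Hmgn2, Ly6g, Cybb and Ly6c2 reached 200 UMIs only with those of the granule-high cells. Of the 247 Hist1h2ap UMIs in granule-high cells, 97 lay in 1 cell. Ly6g, the antigen of the sort, had 151 UMIs in granule-high and 89 in the other Smad3-KO neutrophils. Markers of other classes were counted in granule-high cells as well. The 8 monocyte markers had 1577 CPM, against 457 CPM in other Smad3-KO neutrophils. Of their UMIs, 164 were of Ly6c2, in 45 cells, and 45 of Plac8, in 27 cells. Fn1 had 5 UMIs, Ccr2 3 and Ly6i 3, while Vcan, F13a1 and Ms4a4c were at 0. The 9 T or NK markers had 315 CPM against 66.1 CPM, in 6 of 53 cells. The 10 macrophage markers had 237 CPM against 413 CPM. Cd63 made up 26 of their UMIs, in 19 cells, and Apoe 4, while C1qa, Pf4, Mrc1, Adgre1 and Trem2 were at 0. The 10 dendritic markers had 330 CPM against 212 CPM, in 32 cells, of which Cst3 made up 44 UMIs and Zbtb46 2, with the other 8 markers at 0. B or plasma markers were found in 5 cells, endothelial markers in 1, and LLC carcinoma, fibroblast, erythroid and mast cell markers in 0. The part of these cells or of doublets in the members' levels was not tested.

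The comparison of genotypes in neutrophils rested on the granule-high cells. In all neutrophil-like cells, Ngp had 4739 UMIs in Smad3-KO and 2 in Smad3-WT, a ratio of 3068 (interval 849 to 25344), and Camp, with 3740 UMIs and 0, was at least 1614-fold higher against a floor of 3 UMIs over the group. Itgb2l, with 46 UMIs and 0, was at least 19.9-fold higher, Ltf 113-fold (interval 64.4 to 219) and Chil3 19.6-fold (interval 13.1 to 30.7). The ratio of Chil3 depended on the cells named neutrophil-like, and was 5.83 at clustering resolution 0.1, 41.2 with another seed and 53.6 without the quality filter. Ratios for Cd177, Pglyrp1 and Mmp8 were 1.40 (interval 1.13 to 1.73), 1.63 (interval 1.46 to 1.82) and 1.67 (interval 1.38 to 2.03). With 30 principal components, Cd177 was at 1.03 (interval 0.812 to 1.32), and with the filter of at least 500 UMIs and at most 20% mitochondrial UMIs Cd177 was at 1.17 (interval 0.903 to 1.51) and Mmp8 at 1.15 (interval 0.928 to 1.43), so that these intervals included 1. As a mean over cells, Cd177 was at 0.808. Summed, the members had 8743 CPM in Smad3-KO and 606 CPM in Smad3-WT neutrophils, a ratio of 14.4 (interval 13.5 to 15.4). At least 2-fold higher were 5 of 8 members, beside 7.07% of 6043 genes with at least 20 UMIs, whose median log2 ratio was -0.38. Camp, Ngp, Ltf and Itgb2l reached 20 UMIs only through Smad3-KO, so that this count is not read as a result. With median-of-ratios scaling, which takes out that shift, the ratio of the sum was 18.9.

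The same split removes 0 Smad3-WT cells. Without the 53 granule-high cells, the sum of the members was 436 CPM in Smad3-KO against 606 CPM in Smad3-WT neutrophils, a ratio of 0.719 (interval 0.644 to 0.802). The median gene of this comparison had a ratio of 0.734, so that the sum is not read as a result about the members. Cd177 had a ratio of 0.134 (interval 0.0752 to 0.225), Pglyrp1 of 0.597 (interval 0.512 to 0.694) and Mmp8 of 0.634 (interval 0.485 to 0.822), all below 1. The interval of Mmp8 included the ratio of the median gene, and the intervals of Cd177 and Pglyrp1 lay below it. The direction of these 3 genes between the libraries thus depended on 4.99% of the Smad3-KO neutrophils. Chil3 had a ratio of 1.16 with an interval of 0.613 to 2.18. Of the 7 members with at least 20 UMIs in these cells, Cd177 was at least 2-fold lower in Smad3-KO, beside 23.9% of 5853 genes, whose median log2 ratio was -0.45. Camp (at least 12.1-fold), Ngp (29.1-fold, interval 7.54 to 248) and Ltf (7.03-fold, interval 3.73 to 14.4) stayed higher in Smad3-KO, at 22.0, 35.3 and 51.1 CPM. These levels must be set beside those in lymphoid cells of the same library. In 917 Smad3-KO T, NK and B-like cells, which should lack the genes, Camp had 4.81 CPM, Ngp 18.6 CPM and Ltf 3.44 CPM. Of the 27 Ngp UMIs behind that level, 14 lay in the B or plasma-like cell that was itself over 10 UMIs.

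The shares of cells with a UMI were set beside the same lymphoid cells. In Smad3-KO, Camp was found in 2.18% of the other neutrophils (median 985 UMIs per cell), 0.460% of T or NK-like cells (median 1315) and 1.04% of B or plasma-like cells (median 1183.5). Pglyrp1 was found in 13.6%, 6.90% and 5.81% of the same cells, and Mmp8 in 4.95%, 1.38% and 0.207%. For each of these 3 genes the share was higher in the other neutrophils than in either lymphoid class. The interval of Camp in B or plasma-like cells (0.338% to 2.40%) included the 2.18% of the other neutrophils, however. Shares of the other members in these classes are not given here, and the part of free RNA in the shares was not tested. In the Smad3-WT library, Pglyrp1 was also found in 26 of 54 T or NK-like cells (48.1%, or 11.1% after thinning), at 416 CPM, beside 359 CPM in the neutrophils.

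Within Smad3-WT, the neutrophil clusters differed in the members they held. Cluster 12 (197 cells, led by Siglecf) had 777 CPM of Pglyrp1 and 229 CPM of Cd177, cluster 1 (1237 cells) had 366 and 98.7 CPM, and cluster 6 (348 cells) had 106 and 72.1 CPM. The 10 Smad3-WT cells of cluster 13 had 9 Pglyrp1 UMIs or 1424 CPM (interval 651 to 2704) and 0 of Cd177, and the 24 of cluster 2 had 1 and 2 UMIs. Among the 3 larger clusters Mmp8 had another order, with 201 CPM in cluster 6, 108 CPM in cluster 1 and 59.2 CPM in cluster 12. Clusters were made from other genes of the same cells, and no test was run between them.

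Across all classes, the libraries placed the members in different cells. In Smad3-KO, granule-high cells, 53 of 2433, held 10640 of 11692 member UMIs or 91.0% (interval 90.5 to 91.5), and other neutrophils 4.23%. Camp, Ngp and Ltf chose the granule-high cells, so their shares and that of the sum were largely set by the split. These 3 shares were 97.1% for Camp, 95.7% for Ngp and 91.0% for Ltf. Of the members outside the split, granule-high cells held 83.8% of Cd177, 82.3% of Chil3, 72.2% of Itgb2l, 58.6% of Mmp8 and 56.3% of Pglyrp1. In Smad3-WT, neutrophils held 43.1% of 2320 member UMIs and monocyte-like cells 42.2%. Much of the latter was Chil3, of which 600 of 713 UMIs (84.2%, interval 81.3 to 86.8) lay in 716 monocyte-like cells, at 236 CPM and in 27.0% of them. Mmp8 (40.5%) and Cd177 (29.5%) of Smad3-WT were likewise found in monocyte-like cells. Smad3-KO had 34 monocyte-like cells, in which Chil3 had 31 UMIs or 406 CPM and Ngp 87 UMIs. Of Camp, Ngp and Ltf together, 27 and 119 UMIs there lay in the 2 cells over 10 UMIs.

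**Figure D4:**
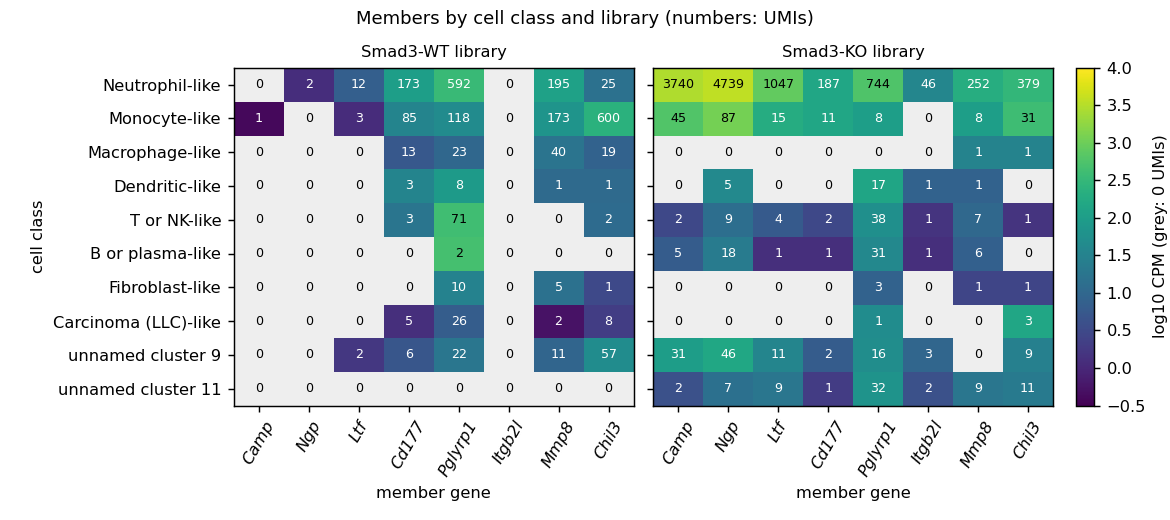
Level of each member (log10 CPM of summed UMIs, grey for 0 UMIs) by cell class in the Smad3-WT library (left) and the Smad3-KO library (right), with the number of UMIs in each field. In Smad3-WT the largest count is Chil3 in monocyte-like cells (600), and in Smad3-KO it is Ngp in neutrophil-like cells (4739).

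The 13 cluster averages that the authors deposited, made from all barcodes of both libraries and scaled to a sum of 1311 each, were read without any choice of cells made here. They carry no error and no map from cells to clusters, and their numbers are the authors' own, unrelated to the clusters above. Deposited cluster 10 had the highest average of 7 members, with 10.1 for Camp (next 0.707, in cluster 13), 12.1 for Ngp (next 1.07), 2.66 for Ltf (next 0.174), 0.524 for Cd177 (next 0.245), 1.74 for Pglyrp1 (next 1.19), 0.0971 for Itgb2l (next 0.0269) and 0.968 for Chil3 (next 0.345). For Mmp8, cluster 6 was highest at 0.404, with cluster 10 next at 0.350. All members summed to 21.8 per 1000 UMIs in cluster 10, and the next highest was cluster 6 with 2.33. Pglyrp1, Cd177 and Mmp8 were thus also present in cluster 6, where Camp had an average of 0.264. Chil3 stood second in cluster 5, the cluster with the highest Ly6c2, a monocyte marker. Cluster 13, second for Camp and Ngp, had the highest average of Flt3, a dendritic marker (0.205). Its S100a8 average was 3.67, beside 67.9 in cluster 10.

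**Figure D5:**
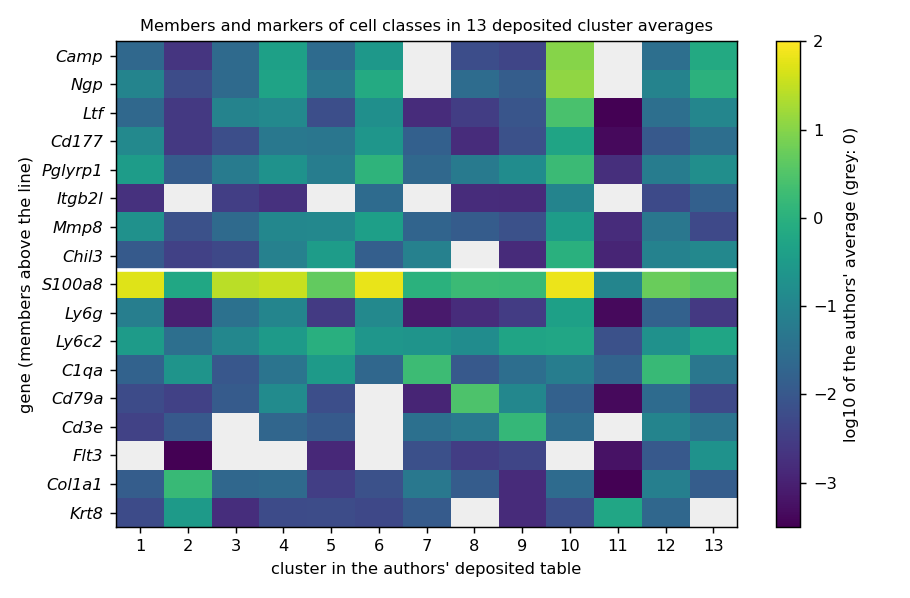
Averages of the 8 members (above the line) and of markers of cell classes (below it) in the 13 clusters of the authors' deposited table, on a log10 scale with grey for 0. Cluster 10 is highest for every member but Mmp8, which is highest in cluster 6, and both clusters hold S100a8.

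Over these 13 clusters, pairs of members correlated (Pearson, log2 of average + 0.001) from 0.446 for Itgb2l with Chil3 to 0.982 for Camp with Ngp. The clusters share barcodes of the same libraries, so the values describe the table. Of 9062 other genes, the 10 with profiles most like the mean of the members were Mapk13 (0.918), Shoc2 (0.913), Slc35a5 (0.907), Arid3a, Gnai3, H2-Q10, Alox5, Mmp9, Scarb2 and Pmaip1. Of these, 9 were highest in cluster 10. With Spearman's correlation, 2 of the 10 remained and 2 of the new 10 were highest in cluster 10.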

How the data were processed

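The members, gene lists and comparisons were chosen with earlier results of these data known. The genes named are the members, the genes of the lists, the 10 genes with the most similar profile over the deposited clusters and the 10 with the highest ratio in granule-high cells. Xist, the Y-linked genes and the grouping by Chil3 and Mmp8 were chosen after values were seen.

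The matrix deposited by the authors contains unnormalized counts, the UMIs per gene and barcode, made with Cell Ranger 3.0.2 on mm10 per the submitters' notes. The authors' deposited averages per genotype are a signal, in which the UMIs of a gene in a library are scaled to a total of 1311. Recomputed for each barcode suffix, they differed from those of Smad3-WT by at most 3.58e-08 for one suffix and from those of Smad3-KO by at most 4.91e-09 for the other, which identified the suffixes. The authors' deposited cluster averages are treated as a score, since each column sums to 1311. Fold changes and p-values in these tables are the authors' own comparisons and were not used.

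The filter took barcodes with 200 genes or more, a mitochondrial share below 10% and between 500 and 20000 UMIs (12176201 UMIs were left for Smad3-WT, 4146792 for Smad3-KO). They were clustered with scanpy 1.11.5 and igraph 0.11.9 (2000 variable genes without 27 granule genes, 100 principal components, 15 neighbours, Louvain resolution 1, seed 1) into 15 clusters. A cluster was named when at least 3 markers of a class were found in 10% of its cells at a level 2 times that elsewhere. It stayed unnamed when its 10 leading genes held a marker of another class and no more of its own. A shallow cluster without a marker of its class among them also stayed unnamed. Clusters 9 (3 monocyte markers) and 11 (7 B or plasma markers) were thus left unnamed. Names are "like" names. Levels are CPM of summed UMIs with exact Poisson intervals, shares have Clopper-Pearson intervals, and ratios have exact intervals from the split of the UMIs. Doublets were neither called nor removed. The intervals were tested on simulated independent counts, the model they assume. That test cannot show how they do where UMIs are clumped in few cells. Scripts used scikit-learn 1.9.0, matplotlib 3.10.9, pandas 2.3.3, scipy 1.17.1, numpy 2.4.6 and Python 3.11.15. Alternatives covered filters, clustering, the split, depth and scaling.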

Additional observations from a re-analysis of the deposited data

Results flagged for a closer look

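Pglyrp1 differed between the libraries in opposite directions in different classes, and these differences between classes were not tested. Its Smad3-KO over Smad3-WT ratio was 1.63 in neutrophil-like cells (interval 1.46 to 1.82) and 2.77 in the unnamed cluster 9 (interval 1.36 to 5.52). It was 0.135 in T or NK-like cells (interval 0.0885 to 0.203) and 0.0842 in B or plasma-like cells (interval 0.0214 to 0.726), the latter with 2 UMIs in only 2 Smad3-WT cells. Without the granule-high cells the ratio in neutrophils was 0.597, on the same side as in lymphoid cells, beside 0.734 for the median gene.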

How the results depend on the processing

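Of 198 values recomputed under alternatives, 148 stayed within their interval or within 1.5 times for counts, 45 moved and 5 reversed. Granule-high cells numbered 33 to 58 and were all Smad3-KO under all 11 alternatives. With 30 principal components the count was 33, the share of Smad3-KO member UMIs in granule-high cells 58.1% and the genotype ratio of the sum 10.8. With the filter of at least 500 UMIs and at most 20% mitochondrial UMIs these were 33, 58.1% and 11.3, and the ratio of the 5 members within Smad3-KO was 31.4. In both settings 21 of the cells fell in a cluster named B or plasma-like, while cells of any class over 10 UMIs numbered 58 in every clustering. Without a quality filter the share was 80.9% and the ratio 13.5. The ratio was 15.8 with seed 2, 18.9 with median-of-ratios scaling and 6.72 as a mean over cells, where Cd177 reversed to 0.808; the cause was not tested.

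Without granule-high cells the ratio of the sum reversed to 0.719, and Cd177 (0.134), Pglyrp1 (0.597) and Mmp8 (0.634) reversed. The median gene had a ratio of 0.734 in the same cells. Of alternatives added after seeing the data, counting cells of any class gave a share of 93.5%, and leaving the rest of cluster 13 out of the comparison gave a ratio of 47.1 for the 5 members. The ratio of Chil3 within Smad3-KO ranged from 144 to 946, and its genotype ratio from 1.16 without granule-high cells to 53.6 without a quality filter. Thinning to 500 UMIs left 4 of the 7 members found in at least 50% of granule-high cells, among them Camp, Ngp and Ltf, which chose the cells. With Spearman's correlation, 2 of the 10 most similar genes were highest in the deposited cluster 10, against 9 with Pearson's.

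No paired analysis was possible because each genotype has 1 library. Pooled tumors, 1 library per genotype, sex and the unequal makeup of the libraries limit every comparison between them.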

Other observations

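Among genes outside the lists, Anxa1, which encodes annexin A1, a protein of gelatinase granules in neutrophils, had 820 UMIs or 5880 CPM in granule-high cells and 273 UMIs or 241 CPM in other Smad3-KO neutrophils. Smad3 itself had 5 UMIs in granule-high cells and 213 in other Smad3-KO neutrophils, a ratio of 0.191 (interval 0.0613 to 0.452), and 29 UMIs in Smad3-WT neutrophils, counted over a 5′ part of the transcript that the allele may keep. Xist was found in 15 of 53 granule-high cells and Y-linked transcripts in 1, against 75 and 33 of 1010 other Smad3-KO neutrophils, so that cells of both kinds were present in the Smad3-KO library. The 1 granule-high cell with Y-linked transcripts also held Xist, and 2 of the other Smad3-KO neutrophils held both. In Smad3-WT neutrophils, Xist had 0 UMIs and the Y-linked genes 387.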
